A study of Mus musculus with 2 samples.

Results

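The genes described here are 8 carbonic anhydrase genes of the mouse, Car1, Car2, Car3, Car4, Car5b, Car8, Car12 and Car13, chosen by symbol. Each of the 19 probe sets whose single annotated symbol is one of these genes was included, of 45037 probe sets that were not array controls, and the 8 genes are among 18193 with a probe set of their own. The treated array came from G1E cells carrying ER-GATA-1(V205G) and given 1 µM estradiol for 24 h. The array set against it came from the same kind of cells before estradiol, at 0 h. G1E is an immature erythroid cell line that lacks GATA-1, so both arrays share that deletion and both carry the fusion, a GATA-1 mutant with impaired binding to its cofactor FOG-1 that estradiol activates. There was 1 array per group, so no p-value or error between cultures can be given. The labels give neither the promoter that drives the fusion nor whether the cells were a single clone, and there was no array of estradiol-treated cells without the fusion and no untreated array at 24 h. Whether a difference came with the active mutant, with the hormone or with 24 h of growth cannot be told apart.

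Carbonic anhydrases are zinc enzymes that interconvert carbon dioxide and bicarbonate. Red cells hold large amounts of the cytosolic forms, which turn carbon dioxide from the tissues into bicarbonate, and the membrane exchanger band 3 then moves the bicarbonate out of the cell in return for chloride. Car1 and Car2 are the family members known for high expression in the erythroid lineage. The other members sit in different compartments: Car3 and Car13 are cytosolic, Car4 is tethered to the outer face of the membrane, Car12 spans the membrane with its active site outside, and Car5b is mitochondrial. Car8 is a related protein that has lost the catalytic zinc site and binds an IP3 receptor. In mouse, Car13, Car1, Car3 and Car2 lie next to each other on chromosome 3, while Car8 is on chromosome 4, Car12 on 9, Car4 on 11 and Car5b on X.

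Signal above the floor came from only part of the family. The floor was the 50th percentile of the signals on both arrays, a signal of 95.2, and a probe set was called measured when it reached the floor on both arrays. Of the 19 probe sets, 7 were measured, 0 reached the floor on 1 array only and 12 lay below it on both. The 7 belonged to 5 genes: Car1, Car2, Car3, Car13 and Car12. Each gene is represented by its brightest probe set, and a gene is counted as higher or lower at 2-fold. By that rule 1 of the 5 measured genes, Car3, was lower after estradiol and 0 were higher. Among all 10240 measured genes 1.10% were at least 2-fold lower and 2.04% at least 2-fold higher. Log2 ratios of estradiol over untreated were below 0 for 4 of the 5 genes, against 49.9% of all measured genes, and the median of the 5 was -0.24 against 0.00 for all. Counted by probe set, 6 of the 7 measured had a log2 ratio below 0, against 47.6% of all measured probe sets. With 5 genes, of which 4 lie side by side, these shares describe the 5 and no more.

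**Figure D1:**
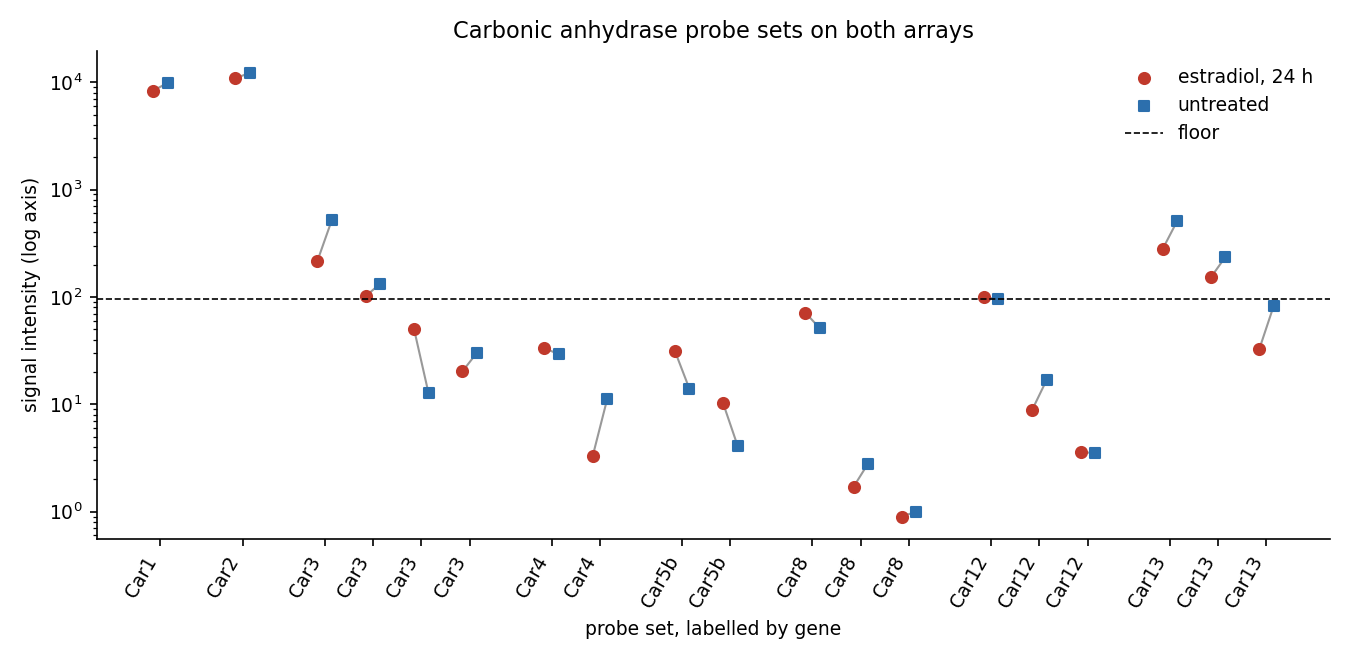
Signal intensity (log axis) of each of the 19 carbonic anhydrase probe sets, labelled by gene, with the estradiol array as a red circle left of the untreated array as a blue square and the floor of 95.2 dashed. Car1 and Car2 lie far above the floor, 5 further probe sets of Car3, Car12 and Car13 reach it on both arrays, and 12 probe sets stay below it.

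The erythroid forms kept strong signals on both arrays and differed little. Car1, whose enzyme is abundant in mature red cells, read 8348.5 after estradiol and 9862.9 in untreated cells, a log2 ratio of -0.24. Car2, the fast cytosolic enzyme of red cells and of many acid-secreting cells, read 10896.4 after estradiol and 12200.3 in untreated cells, a log2 ratio of -0.16. Both were a little lower on the estradiol array. The yardstick available with 1 array per group is how far probe sets of 1 gene differ in log2 ratio, a pooled SD of 0.20 for genes in the highest tertile of signal, and both ratios lie within 2 SD (0.40). That SD covers probe noise and transcript forms and leaves out differences between cultures. Each of these genes has 1 probe set, so no second probe set of the same gene can be set beside it.

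Bright genes in general leaned slightly the same way. Of 720 measured genes with a mean signal of at least 5000, a limit chosen after the values were seen, 64.4% had a log2 ratio below 0, with a median of -0.05 and the 10th and 90th percentiles at -0.23 and 0.18. Car2 lies inside that range and Car1 just below it. Ranked from the lowest ratio among all 10240 measured genes, Car1 stood at 2135 and Car2 at 2955. After a loess correction for signal the log2 ratios were -0.19 for Car1 and -0.10 for Car2.

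Car3 was the only measured listed gene past 2-fold, and its probe sets were not equal in size of difference. Car3 is a cytosolic form best known from muscle, fat and liver, with low carbon dioxide hydration activity. Its brightest probe set read 216.7 after estradiol and 522.8 in untreated cells, 2.41-fold lower with a log2 ratio of -1.27. The second measured probe set read 101.7 after estradiol, just above the floor, and 132.9 in untreated cells, a log2 ratio of -0.39. The difference on the first exceeds 2 SD (0.60) of such probe sets in the lowest tertile of signal, where Car3 falls, and that on the second does not. In that tertile 1.12% of 4194 measured genes were at least 2-fold lower.

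The remaining probe sets of Car3 were too dim to form a ratio. One read 20.2 after estradiol and 30.1 in untreated cells, and the other read 50.1 after estradiol and 12.7 in untreated cells, so the raw signals of these 2 went in opposite directions below the floor. The last is of the kind whose name ends in _s_at, which marks probes shared by more than 1 transcript. With the median of both measured probe sets in place of the brightest, Car3 had a log2 ratio of -0.83 and was not past 2-fold. Raising the floor to the 70th percentile put its estradiol signal below the floor, leaving a bound of -0.71, also short of 2-fold. Among all measured genes Car3 stood at rank 50 from the lowest ratio. The genes next to it in that ranking were Sall2 and Ngly1 at log2 ratios of -1.29 each and Slc39a10 and Stat5a at -1.25 each, a likeness that rests on 2 arrays and 1 ratio.

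**Figure D2:**
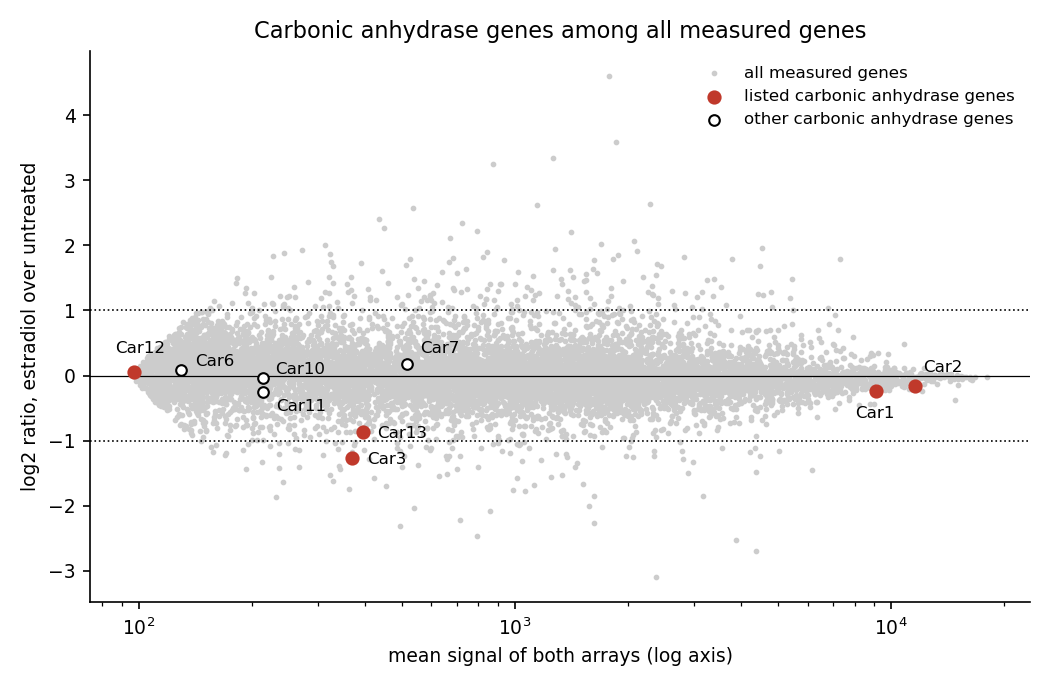
Log2 ratio of estradiol over untreated against the mean signal of both arrays (log axis) for all 10240 measured genes in grey, with the 5 measured listed genes in red, 4 other carbonic anhydrase genes as open circles and 2-fold as dotted lines. Car3 at -1.27 lies below the lower dotted line and Car13 at -0.86 just above it, while Car1 and Car2 lie at the bright end near 0.

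Car13 was lower on each of its probe sets but did not reach 2-fold. Car13 encodes another cytosolic carbonic anhydrase, a close relative of the forms beside it on chromosome 3. Its brightest probe set read 279.2 after estradiol and 507.8 in untreated cells, a log2 ratio of -0.86 or 1.82-fold lower. The second probe set read 152.5 after estradiol and 235.8 in untreated cells, a log2 ratio of -0.63. The last read 32.5 after estradiol and 82.7 in untreated cells and gave no ratio because both signals lay below the floor. All 3 probe sets thus had the lower signal on the estradiol array, and both measured ratios were beyond 2 SD (0.60) for the lowest tertile of signal. Car13 stood at rank 181 from the lowest of the 10240 measured genes, of which 497 were lower at a threshold of 1.5-fold.

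The genes of the other compartments were at or below the floor. The brightest Car12 probe set read 99.1 after estradiol and 95.5 in untreated cells, just inside the floor of 95.2, with a log2 ratio of 0.05 that was -0.06 with a common median or quantile normalization and a bound of -0.07 after loess. The other Car12 probe sets read 8.90 and 3.60 after estradiol, against 16.9 and 3.50 in untreated cells. Car8 read 71.5 after estradiol and 51.1 in untreated cells on its brightest probe set, and its other probe sets read 1.70 and 0.90 after estradiol, against 2.80 and 1.00 in untreated cells. Car4 read 33.3 and 3.30 after estradiol, against 29.2 and 11.2 in untreated cells. Car5b read 31.4 and 10.2 after estradiol, against 14.0 and 4.10 in untreated cells. No probe set of Car4, Car5b or Car8 reached the floor on either array, so no ratio was formed for them. Of the 12 probe sets below the floor on both arrays, 6 had the higher signal after estradiol and 6 the lower. A signal below the floor on this array does not show that a transcript was absent.

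The chromosome 3 genes were compared with the protein-coding genes around them, since position was not used to choose them. In RefSeq gene order no other protein-coding gene lies between Car13, Car1, Car3 and Car2. All 4 were measured and all 4 had log2 ratios below 0, of which Car13 and Car3 lay beyond 2 SD between probe sets and Car1 and Car2 did not. The share of all measured genes beyond 2 SD was not counted. At a threshold of 1.5-fold 497 of 10240 measured genes were lower and 728 higher. Of the 10 nearest flanking genes with a probe set, 5 on each side, 5 were measured and 0 were past 2-fold. On the Car13 side Rbis had a log2 ratio of -0.10 with -0.21 on its other measured probe set, and Lrrcc1 had -0.07 with -0.72 on its other. E2f5, a cell cycle transcription factor gene, had -0.12, with -0.24 and -0.06 on its other probe sets. On the Car2 side Ythdf3, the gene of a protein that reads methylated RNA, had a log2 ratio of 0.08, with 0.21 and -0.09 on its other probe sets. Armc1 had 0.42, with 0.19 on its other measured probe set. Ralyl, Slc7a12, Sirpb1a, Cypt12 and Cyp7b1 were below the floor on both arrays. Brightest probe sets of the 5 measured flanking genes ranged from -0.12 to 0.42 and those of the 4 carbonic anhydrase genes from -1.27 to -0.16, a difference that was not tested. On the Car13 side other probe sets of Lrrcc1 (-0.72), E2f5 (-0.24) and Rbis (-0.21) lay inside the carbonic anhydrase range. The E2f5 probe set at -0.06 and the other probe sets of Ythdf3 and Armc1 lay outside it.

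**Figure D3:**
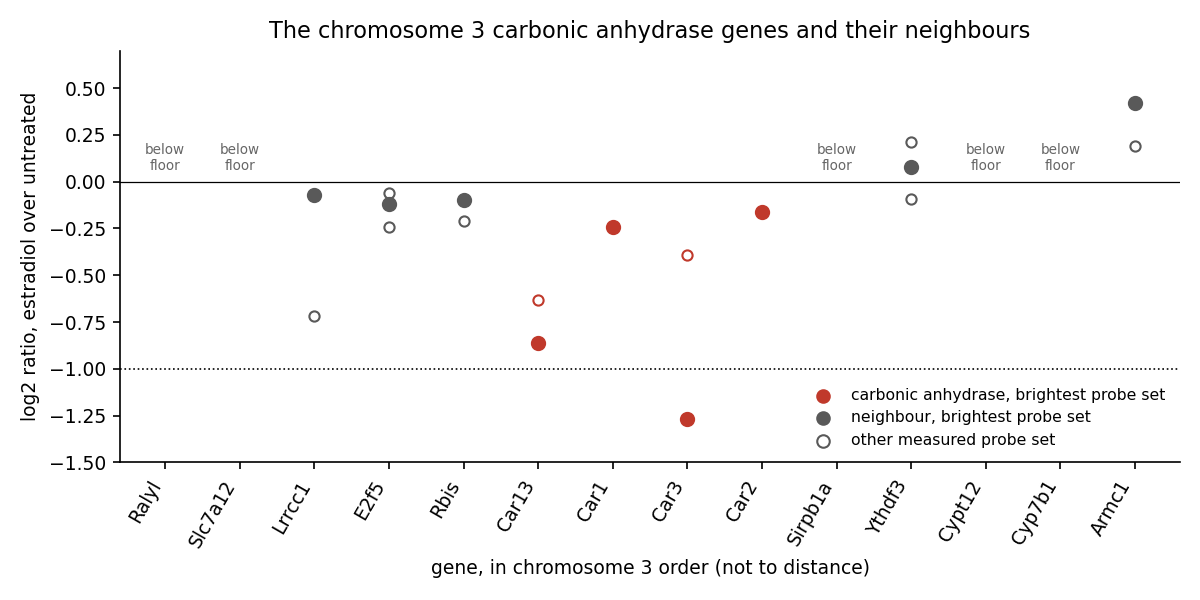
Log2 ratio of estradiol over untreated for the 4 chromosome 3 carbonic anhydrase genes (red) and 10 flanking protein-coding genes (grey) in chromosome order, not to distance; filled circles are brightest probe sets, open circles other measured probe sets and the dotted line 2-fold lower. Car13 and Car3 lie at -0.86 and -1.27, and the flanking genes below the floor have no point.

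The other measured carbonic anhydrase genes differed little. Of 8 such genes 4 were measured on both arrays, with 0 at least 2-fold higher, 0 at least 2-fold lower and a median log2 ratio of 0.02. By that rule 2.04% of all measured genes were higher and 1.10% lower, so few calls would be looked for among 4 genes. Car7, a cytosolic form, read 549.4 after estradiol and 484.5 in untreated cells, a log2 ratio of 0.18, on a probe set named _s_at, and its other probe sets were below the floor. Car11, one of the forms without catalytic activity, read 195.5 after estradiol and 232.9 in untreated cells, a log2 ratio of -0.25. Car10, also without catalytic activity, and the secreted salivary form Car6 had log2 ratios of -0.04 and 0.08, the second of which was below 0 (-0.03, -0.04 and -0.05) with a common median, quantile normalization and loess. Car15, a membrane-anchored form, read 156.9 after estradiol and 42.5 in untreated cells, below the floor, a bound of at least 1.65-fold higher. Its log2 ratio was 1.88 once the floor was lowered to the 30th percentile and 1.56 with no floor and 16 added to each signal. Car5a, Car9 and Car14, a mitochondrial and a pair of membrane-spanning forms, were below the floor on both arrays.

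Partners of carbonic anhydrases in gas and ion transport were set beside them as lists, chosen with earlier results of these data known. Among the bicarbonate and anion exchangers 8 of 18 genes on the array were measured and 0 passed 2-fold in either direction, with a median log2 ratio of 0.05. Slc26a2, a sulfate transporter gene, had a log2 ratio of 0.89 on its brightest probe set and 0.63 as the median over its probe sets. Slc4a1, the gene of band 3, read 768.9 after estradiol and 422.5 in untreated cells, a log2 ratio of 0.86. On its other measured probe set the ratio was 1.21, and the median of both, 1.04, was past 2-fold. Slc4a4, a sodium bicarbonate cotransporter gene, read 168.4 after estradiol and 63.3 in untreated cells, below the floor, a bound of 0.82, and its log2 ratio was 1.41 once the floor was lowered to the 30th percentile, but the probe set of most specific name gave a bound of -0.04. Of the proton and lactate transporters 5 of 13 were measured and 0 passed 2-fold (median -0.11), with 2 log2 ratios above 0 and 3 below. Above 0 were the sodium-proton exchanger genes Slc9a8 at 0.24 and Slc9a3 at 0.20. Below 0 were Slc16a1 at -0.18, Bsg at -0.12 and Slc16a8 at -0.11, of which Slc16a1 and Bsg had the brightest signals of the list.

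Water and gas channel genes differed in both directions. Of 14 genes 7 were measured on both arrays, all 7 with log2 ratios above 0 and a median of 0.59, with 2 at least 2-fold higher and 0 lower, where 2.04% of all measured genes were higher. Rhd, a red cell protein of the Rhesus family, read 1953.3 after estradiol and 700.7 in untreated cells, 2.79-fold higher. Aqp2, a water channel gene best known from kidney, read 269.9 after estradiol and 130.8 in untreated cells, 2.06-fold higher. Aqp9, a channel for water and small solutes, read 70.1 after estradiol, below the floor, and 169.2 in untreated cells, a bound of at least 1.78-fold lower. Its log2 ratio was -1.27 once the floor was lowered to the 30th percentile and -1.10 with no floor. The Aqp2 call was lost with a common median (log2 ratio 0.93), quantile normalization (0.94), loess (0.94) and no floor (0.96), and both its signals lay below a floor at the 70th percentile. The list median was 0.29 over 3 genes with that floor. With the probe set of most specific name, the ratios of Aqp11 and Aqp6 were -0.90 and -0.03 in place of 0.29 and 0.33.

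Enzymes that use bicarbonate differed in 1 member. Of 9 genes 8 were measured, 1 was at least 2-fold higher and 0 were lower, with a median log2 ratio of -0.01. Among all measured genes 2.04% were higher and 1.10% lower by that rule. Pcx, pyruvate carboxylase, which fixes bicarbonate in mitochondria, read 372.8 after estradiol and 144.8 in untreated cells, 2.58-fold higher. Raising the floor to the 70th percentile left Pcx only a bound of 0.23 on the log2 scale, short of 2-fold. Of the IP3 receptor genes, the family whose type 1 member Car8 binds, Itpr2 was measured and read 590.2 after estradiol and 264.7 in untreated cells, 2.23-fold higher. Its other measured probe sets ranged from 0.09 to 2.02 on the log2 scale, and the bound was 0.89 when the floor was raised to the 70th percentile. Itpr3 was below the floor on both arrays, and Itpr1 had no probe set assigned to it alone.

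**Figure D4:**
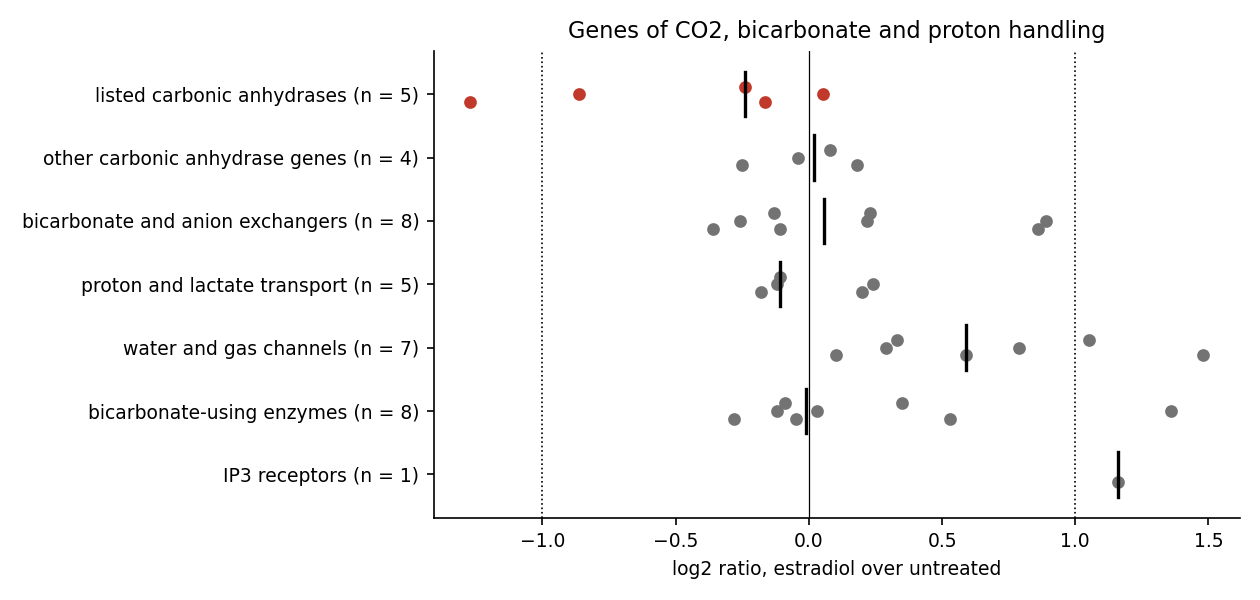
Log2 ratio of estradiol over untreated for each measured gene (points) of the listed carbonic anhydrases (red) and 6 lists of related genes (grey), with the list median as a black bar and 2-fold dotted. The listed carbonic anhydrases reach furthest below 0, to -1.27, and the 7 water and gas channel genes measured on both arrays lie above 0 with a median of 0.59, while Aqp9, with only a bound of -0.83, has no point.

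Both arrays carried erythroid markers, and some erythroid and mast cell markers differed between them by 2-fold or more. Among all 10240 measured genes that threshold counted 2.04% as higher and 1.10% as lower. The marker counts were not tested against these shares. Of 10 erythroid markers on the array 9 were measured, 7 with log2 ratios above 0 and 2 below. At least 2-fold higher were 2, Alas2 at 12.1-fold and Icam4 at 2.34-fold, while Hbb-bh1 had a bound of at least 6.19-fold higher. Epor and Ermap had log2 ratios of -0.13 each, and Rhag and Tfrc had 0.10 and 0.13. With the floor at the 70th percentile Alas2 and Hbb-bh1 had log2 bounds of 3.43 and 0.89, the second short of 2-fold. The summed signal of the 10 was 43179.7 after estradiol and 32573.4 in untreated cells. Of 12 mast cell and basophil markers 6 were measured, 3 with log2 ratios above 0 and 3 below. Tpsab1 was 24.4-fold higher, while Gzmb, Cpa3 and Ms4a2 were lower by 8.60-fold, 5.77-fold and 2.65-fold. Tpsab1 read 140.0 in untreated cells, and raising the floor to the 70th percentile left it a log2 bound of 3.42. Mcpt2 and Cma1 were short of 2-fold, with log2 ratios of 0.52 and 0.19. Hdc, Tpsb2 and Fcer1a reached the floor on 1 array only, with log2 bounds of 0.67, 0.08 and -0.60. The summed signal of the 12 was 6652.7 after estradiol and 13697.3 in untreated cells. Most of it came from Tpsab1 after estradiol and from Cpa3 and Gzmb in untreated cells. Mcpt1, Mcpt4 and Mcpt8 were below the floor on both arrays. Measured markers numbered 4 of 8 for megakaryocytes (summed signal 1500.0 after estradiol and 1279.4 in untreated cells) and 2 of 12 for neutrophils and monocytes (1033.3 after estradiol and 888.3 in untreated cells). They numbered 1 of 5 for lymphoid cells (237.4 after estradiol and 305.3 in untreated cells) and 0 of 4 for eosinophils (78.8 after estradiol and 61.0 in untreated cells). Every summed signal takes in all markers with a probe set of their own, also those below the floor. The measured lymphoid marker, Ms4a1, read 157.2 after estradiol and 135.9 in untreated cells, so the lower lymphoid sum came from signals below the floor. The part of the marker differences in the ratios of Car3 and Car13 was not tested. In RNA from whole cultures, fewer cells of a type and less RNA per cell cannot be told apart.

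How far the ratios depended on the processing differed by gene. For Car1 and Car2, with 1 bright probe set each, only another scaling could move the ratio, and with a common median, quantile normalization and loess it ranged from -0.35 to -0.19 for Car1 and from -0.28 to -0.10 for Car2. Car3 was measured in 8 of 9 alternatives to the scaling, the floor and the choice of probe set, with ratios from -1.38 to -0.83. It was at least 2-fold lower in 7. Signals as deposited, the lowered floor and the probe set of most specific name are among the 7. They could hardly move the Car3 ratio, which stayed at -1.27. With the raised floor (a bound of -0.71) and the median over probe sets (-0.83) Car3 was short of 2-fold. Car13 was measured in 8 of the 9 alternatives and ranged from -0.98 to -0.75, always short of 2-fold. A threshold of 1.5-fold counted Car13 beside Car3, and one of 3-fold counted neither.

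**Figure D5:**
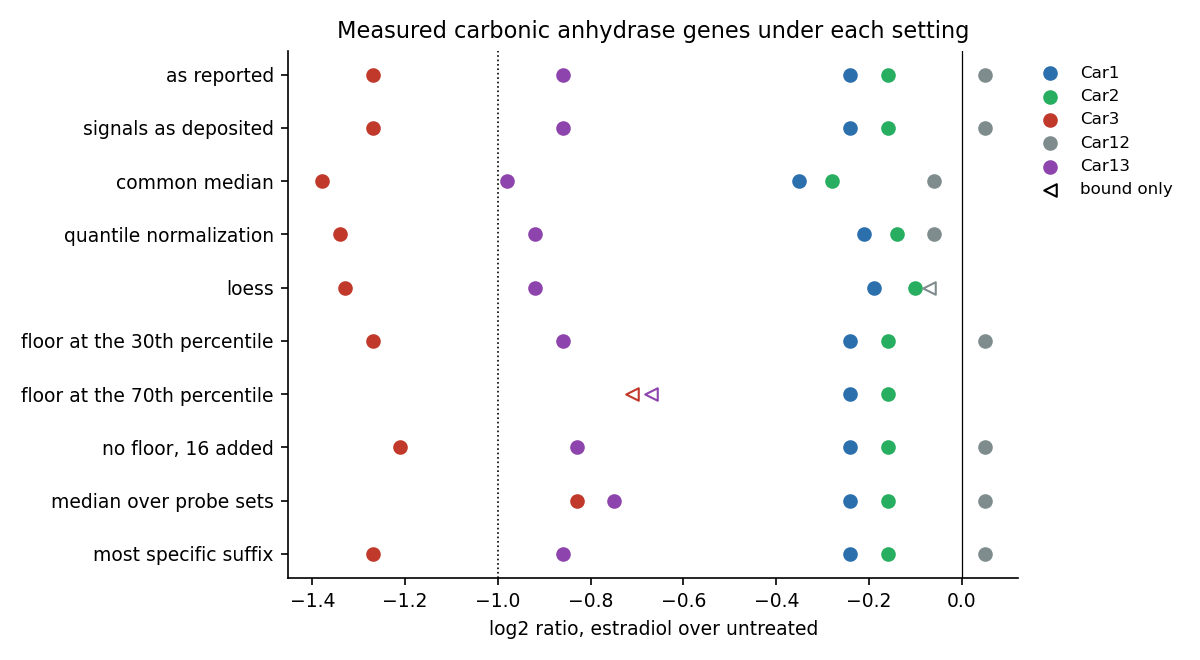
Log2 ratio of estradiol over untreated for the 5 measured listed genes (colours) as reported and under 9 alternatives (rows), with open triangles for bounds and the dotted line at 2-fold lower. Car3 lies left of that line in all rows but the floor at the 70th percentile and the median over probe sets, and Car13 lies right of it in every row.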

How the data were processed

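Total RNA was labelled with biotin and hybridised to Affymetrix arrays, 1 per group. The deposited table holds a linear signal intensity for each of 45101 probe sets, made with GCOS per the submitters' processing notes (version not given in the sources used here). On both arrays the deposited values had a 2% trimmed mean of 500.0. Probe sets were named through the platform annotation: 34945 had 1 gene symbol, 932 several and 9160 none, and all 8 listed genes matched the RefSeq gene table for GRCm38.p6 by identifier. Depth does not apply, and the number of arrays limits the precision. At or above the floor were 50.9% of probe sets after estradiol and 49.2% in untreated cells.

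Signals were rescaled to 1 trimmed mean over non-control probe sets (factors 1.000059 for estradiol and 0.999941 for untreated). The log2 ratio of estradiol over untreated was formed at or above the floor, and a bound was formed by setting an array below the floor to the floor where the other reached it. The error between probe sets used 12514 probe sets of 4586 genes. Tertiles of signal were divided at mean signals of 579.0 and 1334.9. The genes, lists, settings and thresholds were chosen with earlier results of these data known. Named were all carbonic anhydrase genes, members of the pathway lists past 2-fold or otherwise the 2 with the largest ratio, the nearest neighbours on chromosome 3, and genes adjacent in rank to a listed gene past 2-fold. Aqp9, Slc4a4, Slc16a1, Slc16a8, Bsg and the markers named were added after their values were seen. The ratio and count steps were also checked on simulated arrays. Tools were Python 3.11.15, statsmodels 0.14.6 for loess (span 0.3), pandas 2.3.3, numpy 2.4.6 and, for figures, matplotlib 3.10.9.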

Additional observations from a re-analysis of the deposited data

How the results depend on the processing

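With 1 array per group nothing below measures the spread between cultures, and no paired analysis was possible because the groups held 1 array each and no result comes from a test. The number of listed carbonic anhydrase genes at least 2-fold lower was 1 as reported, 0 when the floor was raised to the 70th percentile, 0 with the median over probe sets, 2 at a threshold of 1.5-fold and 0 at 3-fold; the number higher was 0 under every alternative run. Over the whole array 209 genes were higher and 113 lower by that rule. These counts were 439 and 288 when the floor was lowered to the 30th percentile, 130 and 65 at the 70th, 679 and 512 with no floor and 16 added, 728 and 497 at 1.5-fold, and 49 and 21 at 3-fold. A common median moved the array-wide median of log2 ratios by -0.11 and gave 160 higher and 161 lower. It shifts every ratio measured on both arrays alike, so those ratios relative to the array-wide median are as reported. Bounds shifted less, that of Car15 from 0.72 to 0.66. The measured genes numbered 10246 in place of 10240. Over 78 single genes, 33 of 667 values under alternatives moved by at least the SD between probe sets (0.25). Of 53 list medians under alternatives 5 moved by that much. These totals include signals as deposited, which were scaled almost as reported and could hardly move. For genes past 2-fold 0 values changed sign. Some genes short of 2-fold did change sign, among them Car12, Car6, Aqp6, Aqp11 and Rhag. The alternatives for lists and for genes outside the carbonic anhydrases were added after the data were seen.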
